A study of Homo sapiens with 6 samples.

Results

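The hypoxia group described here held 10 genes of the 17468 in the expression table, chosen by name: the HIF alpha subunits HIF1A and EPAS1, the prolyl hydroxylases EGLN1 and EGLN3, and the targets CA9, CA12, ADM, NDRG1, BNIP3 and BNIP3L. All 10 were found in the table. The rule uses names and no measured value, but the genes were proposed with earlier results of these data known. RNA was sequenced from A375 and Colo800, human melanoma cell lines, after infection with virus carrying 1 of 3 short hairpin RNAs. One hairpin was scrambled, and ETV1-sh1 and ETV1-sh2 target ETV1, an ETS-family transcription factor. By the series' design text infections were done in duplicate and RNA was taken at day 4, but the table has 1 column per line and hairpin, and the sources used here do not say whether that column pools them.

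There were thus 6 libraries, each the single library of its line and hairpin, from cells kept in medium with 10% FBS. The labels conflict about drug treatment. Their treatment field lists DMSO for the ETV1-sh1 libraries, trametinib (a MEK inhibitor, 5 nM) for the ETV1-sh2 libraries and vemurafenib (a BRAF inhibitor, 1 uM) for the scrambled libraries, and the protocol speaks of 8 hours of drug after 48 hours of siRNA. No drug appears in the design text, and in these labels each treatment goes with 1 hairpin in both lines, so hairpin and drug cannot be told apart. No label gives an oxygen level. Hairpin names are used below for the libraries so labelled.

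Cells sense oxygen through enzymes that hydroxylate the HIF alpha subunits. EGLN1 and EGLN3 place this mark, VHL binds it and the alpha subunit is degraded. When oxygen is low the subunit escapes, pairs with ARNT and binds short hypoxia response elements near its target genes. HIF proteins are therefore set largely after translation, and an mRNA level of HIF1A or EPAS1 does not measure the activity of the protein. Among the targets, CA9 and CA12 are carbonic anhydrases at the cell surface that help set pH outside the cell. ADM is the secreted peptide adrenomedullin, NDRG1 is a stress-response protein, and BNIP3 and BNIP3L are mitochondrial receptors for mitophagy, the removal of mitochondria by autophagy. EGLN3 is itself a HIF target.

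Values are the authors' FPKM (fragments per kilobase, normalized for library size). Tests were made with limma on log2(FPKM + 1) in 11129 genes whose mean FPKM reached 1, with p-values adjusted by Benjamini-Hochberg over all of them and 0.05 as the threshold. For low genes this scale makes a change look smaller than it is in FPKM. The labels do not say that the libraries come from separate cultures, and p-values measure only the spread among these 6 libraries. Of the hypoxia genes 8 passed this filter and 2, EGLN3 and CA12, lay below it. CA9 passed through the A375 scrambled library alone and ADM through the A375 libraries alone.

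FPKM sums ran from 589256 to 710498 and 10418 to 11013 genes per library reached 1 FPKM. Absolute depth is unknown; against the scrambled A375 library, the steps between low values gave a relative depth of 1.43 (ETV1-sh1) and 2.1 (ETV1-sh2) for the other A375 libraries and 0.769 to 0.859 for the Colo800 libraries. ETV1-sh1 left 41.8% of the scrambled ETV1 level in A375 and 30.3% in Colo800, and ETV1-sh2 left 4.18% and 5.43%. Among the melanocyte markers found, 8 of 9 had a mean of at least 1 FPKM, and SOX10 was at 353 to 556 FPKM in A375 and 549 to 712 in Colo800. The pigment enzymes TYR and DCT were below 0.1 FPKM in all A375 libraries and at 14.8 to 125 FPKM in Colo800. TYRP1 was at 0.286 to 0.604 FPKM in A375 and 1.44 to 1.70 in Colo800. The mean is over the 6 libraries of both lines, so TYR, DCT and TYRP1 reached it through Colo800 alone. MLANA, which did not reach it, was at 0.301 to 0.481 FPKM in A375. Proliferation genes moved with the hairpins: the median of 18 such genes differed from scrambled by -0.68 (A375 ETV1-sh1), -2.25 (A375 ETV1-sh2), -0.52 (Colo800 ETV1-sh1) and -1.04 (Colo800 ETV1-sh2) log2 units. In these bulk samples fewer cells of a type and less RNA per cell cannot be told apart.

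The promoters of 4 hypoxia genes are printed, chosen after their values were seen, because the differences between lines or hairpin libraries described below turn on them. They are the 160 bases before the annotated start, 5′ to 3′ on the gene's strand, from RefSeq on GRCh38.p14, a later build than the hg19 of the expression values. The EPAS1 stretch lies at chr2:46297247-46297406 on the plus strand, CA9 at chr9:35673768-35673927 on the plus strand, ADM at chr11:10304913-10305072 on the plus strand and BNIP3 at chr10:131981924-131982083 on the minus strand. Capitals mark the hypoxia response element cores ACGTG and GCGTG on either strand, so CACGT and CACGC are the same cores read on the other strand.
EPAS1: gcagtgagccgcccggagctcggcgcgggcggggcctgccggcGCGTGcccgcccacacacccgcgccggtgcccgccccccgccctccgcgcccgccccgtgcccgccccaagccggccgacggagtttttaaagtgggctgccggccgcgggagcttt
CA9: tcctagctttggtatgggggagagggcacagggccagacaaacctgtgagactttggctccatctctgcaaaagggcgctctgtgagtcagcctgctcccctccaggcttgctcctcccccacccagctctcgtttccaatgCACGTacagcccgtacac
ADM: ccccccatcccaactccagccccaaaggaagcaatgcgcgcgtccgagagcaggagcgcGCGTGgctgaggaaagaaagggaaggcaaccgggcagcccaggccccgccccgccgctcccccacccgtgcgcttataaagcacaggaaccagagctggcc
BNIP3: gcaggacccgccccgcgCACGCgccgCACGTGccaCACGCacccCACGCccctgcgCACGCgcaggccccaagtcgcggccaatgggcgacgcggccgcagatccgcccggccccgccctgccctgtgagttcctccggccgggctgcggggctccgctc
CA9 had a single core, whose first base lies 18 bases before the start. In EPAS1 a single core began 117 bases before the start and in ADM 101 bases before it. BNIP3 had 6 cores between 143 and 104 bases before the start, and the pair of ACGTG cores overlap on opposite strands in the E-box CACGTG. In the full window of 250 bases before and 50 after the start, 7 of the 8 hypoxia genes with an entry held a core in their first listed window, EGLN3 being the exception; a second HIF1A window held none. Such a core is common: 48.4% of 35116 promoter windows held ACGTG or GCGTG, 21.4% the first and 36.5% the second. CACGTG stood in 7.26%. CCGGAA, a longer form of the GGAA core bound by ETS factors such as ETV1, stood in 17.2% of all windows on either strand and in no window of these 8 genes. The shorter GGAA was not counted. It does occur in the printed ADM stretch and, on the other strand as TTCC, in the printed CA9 and BNIP3 stretches. A match is a description of letters, and no binding was measured.

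HIF1A was among the highest of the hypoxia genes in every library. HIF1A (ENSG00000100644), the alpha subunit of HIF-1, was at 127 FPKM in A375 with the scrambled hairpin, at 97.3 with ETV1-sh1 and at 99.5 with ETV1-sh2. Its Colo800 values were 364 FPKM in the scrambled library, 334 under ETV1-sh1 and 286 under ETV1-sh2. All Colo800 libraries lay above all A375 libraries, and each ETV1 hairpin library lay below the scrambled library of its line. In log2 units HIF1A was higher in Colo800 by 1.51, 1.77 and 1.51 under the scrambled, ETV1-sh1 and ETV1-sh2 hairpins, and the fitted difference was 1.60 (SE 0.129, 95% interval 1.29 to 1.91, adjusted p = 0.000303, limma). Against scrambled its differences were -0.38 and -0.35 in A375 and -0.12 and -0.35 in Colo800. The fitted difference over both hairpins and lines was -0.30 (95% interval -0.72 to 0.12, adjusted p = 0.559, limma) and did not pass the test. Strandedness of the counting is not given, and HIF1A overlaps the antisense RNAs HIF1A-AS1 and HIF1A-AS2, whose reads cannot then be told apart from its own.

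EPAS1 (ENSG00000116016), the alpha subunit of HIF-2, was higher in Colo800, and its ETV1-sh1 and ETV1-sh2 libraries lay apart without passing the test. It was at 3.48 FPKM in scrambled A375, 3.68 under ETV1-sh1 and 23.8 under ETV1-sh2. Colo800 gave 40.9 FPKM when scrambled, 18.7 for ETV1-sh1 and 39.7 for ETV1-sh2. The high A375 library was the one with ETV1-sh2, at 6.82 times its scrambled level, and the low Colo800 library was the one with ETV1-sh1, at 45.9% of its scrambled level. The lines overlapped, since A375 with ETV1-sh2 lay above Colo800 with ETV1-sh1.

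The fitted EPAS1 difference between the lines was 2.0 log2 units higher in Colo800 (SE 0.43, 95% interval 0.97 to 3.04, adjusted p = 0.00861, limma). It no longer passed without the A375 ETV1-sh1 library (adjusted p = 0.0606) or without the Colo800 ETV1-sh1 library (adjusted p = 0.0607). In both lines EPAS1 was higher with ETV1-sh2 than with ETV1-sh1; the fitted difference was 1.72 (SE 0.527, 95% interval 0.45 to 3.0, unadjusted p = 0.0158) and missed the threshold (adjusted p = 0.0773, limma), in a comparison where 13.7% of genes passed (6.91% lower and 6.82% higher). The scrambled libraries enter it only through the spread, yet it passed without the A375 or the Colo800 scrambled library. It also passed without the Colo800 ETV1-sh2 library, at 2.69, which makes 3 of 11 alternatives. On leaving out each library in turn it ran from 0.76 to 2.69. Against scrambled the fitted EPAS1 values were -0.51 for ETV1-sh1 (adjusted p = 0.643) and 1.21 for ETV1-sh2 (adjusted p = 0.156, limma). The ETV1-sh2 value passed only when the Colo800 ETV1-sh2 library was left out, at 2.18 (adjusted p = 0.00382, limma), which leaves A375 as the only line with that hairpin.

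The balance of the alpha subunits in FPKM followed these EPAS1 values. HIF1A stood at 36.4 (scrambled), 26.4 (ETV1-sh1) and 4.18 (ETV1-sh2) times EPAS1 in A375. In Colo800 the ratio was 8.9 (scrambled), 17.8 (ETV1-sh1) and 7.2 (ETV1-sh2). HIF1A was the higher of the pair in all 6 libraries. An interferon-response list moved in the same A375 library as EPAS1: the median of its 15 tested genes stood 2.16 log2 units above scrambled in A375 with ETV1-sh2, 0.40 above with ETV1-sh1, at -0.02 in Colo800 with ETV1-sh1 and at 0.72 with ETV1-sh2. Its part in the EPAS1 values was not tested.

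**Figure D1:**
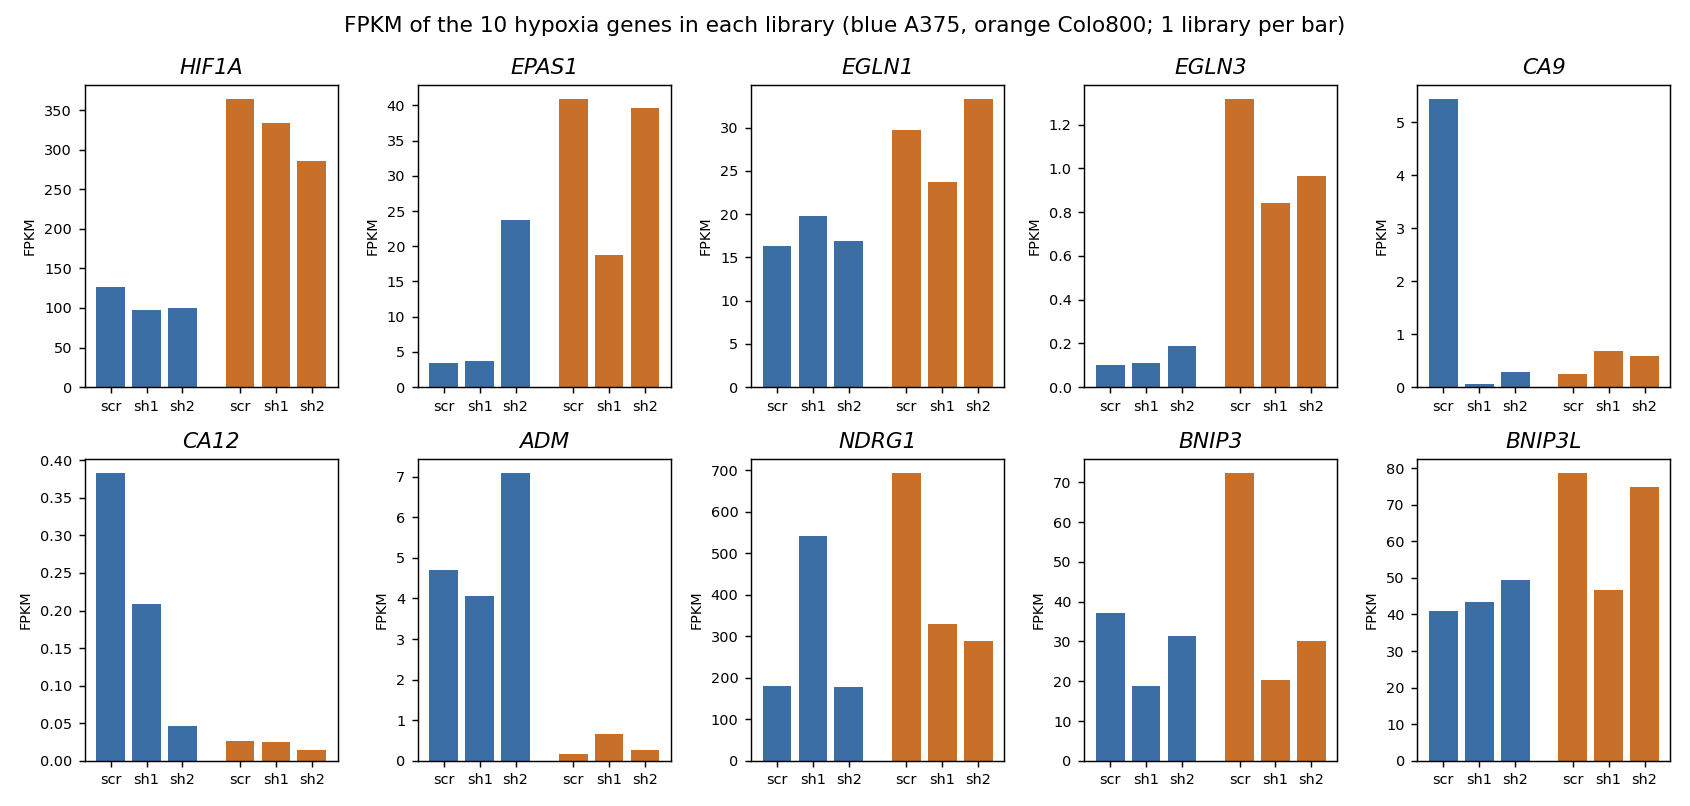
FPKM (vertical axes, each starting at 0 with its own scale) of the 10 hypoxia genes; each bar is 1 library, blue for A375 and orange for Colo800, in the order scrambled (scr), ETV1-sh1 and ETV1-sh2. EPAS1 in A375 is high only with ETV1-sh2 (23.8 FPKM), CA9 stands out in the A375 scrambled library (5.44 FPKM), and BNIP3 in Colo800 is highest in the scrambled library (72.3 FPKM).

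Both prolyl hydroxylases were higher in Colo800, and neither passed against scrambled. EGLN1 (ENSG00000135766), the main hydroxylase of HIF alpha in most cells, was measured at 16.3 (scrambled), 19.8 (ETV1-sh1) and 16.9 (ETV1-sh2) FPKM in A375. The Colo800 libraries held 29.7 (scrambled), 23.8 (ETV1-sh1) and 33.3 (ETV1-sh2) FPKM. All Colo800 libraries lay above all A375 libraries. The fitted EGLN1 difference between lines was 0.68 (SE 0.179, adjusted p = 0.0186, limma), and over both hairpins the difference from scrambled was 0.04 (adjusted p = 0.957, limma). The line difference kept its sign but not its call under upper-quartile scaling (0.50, adjusted p = 0.0561) and when libraries were scaled without ribosomal protein and mitochondrially encoded genes (0.41, adjusted p = 0.114, limma).

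EGLN3 (ENSG00000129521) was low everywhere, at 0.101, 0.113 and 0.187 FPKM in A375 with the scrambled hairpin, ETV1-sh1 and ETV1-sh2. In Colo800 it was at 1.32, 0.843 and 0.968 FPKM in the same order. The groups did not overlap, and in FPKM the scrambled Colo800 library held 13.1 times the A375 value. EGLN3 was below the filter on low values; in a fit with no filter its difference between lines was 0.84 (SE 0.0954, adjusted p = 0.00834, limma). It overlaps EGLN3-AS1 and SPTSSA in the annotation.

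CA9 (ENSG00000107159) was higher in 1 library than in the other 5. It was at 5.44 FPKM in A375 with the scrambled hairpin, at 0.0498 with ETV1-sh1 and at 0.277 with ETV1-sh2. Its Colo800 values were 0.244 FPKM in the scrambled library, 0.691 under ETV1-sh1 and 0.594 under ETV1-sh2. In A375 both ETV1 hairpin libraries thus lay more than 2-fold below scrambled, by 2.62 and 2.33 log2 units, as did 1.63% of all genes tested. In Colo800 both lay above it, by 0.44 and 0.36 log2 units, at levels below 1 FPKM.

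Both values in A375 rest on its single scrambled library. The fitted CA9 difference over both hairpins was -1.04 (SE 0.606, adjusted p = 0.559, limma), and without the A375 scrambled library it was 0.40. For ETV1-sh2 it was -0.99 (adjusted p = 0.354) and passed only without the Colo800 scrambled library, at -2.43 (adjusted p = 0.0395, limma). The difference of the hairpin effect between the lines was 2.88 (SE 0.489, unadjusted p = 0.00154) and did not pass (adjusted p = 1.00, limma); in that comparison 0% of genes passed and 0.593% had an unadjusted p under 0.05. The CA9 difference between the lines (-0.45, adjusted p = 0.528, limma) did not pass either. CA9 overlaps ARHGEF39, which lies on the other strand. Of 6 markers of kidney and liver epithelium 4 were under 1 FPKM in every library; the 6 summed to 6.12 (scrambled), 21.1 (ETV1-sh1) and 69.4 (ETV1-sh2) FPKM in A375 and to 0.528, 1.70 and 2.87 in Colo800, and their part in the CA9 values was not tested.

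CA12 (ENSG00000074410) was below 1 FPKM in every library. It was at 0.383 FPKM in scrambled A375, 0.208 under ETV1-sh1 and 0.0458 under ETV1-sh2. Colo800 gave 0.0266 FPKM when scrambled, 0.0249 for ETV1-sh1 and 0.0139 for ETV1-sh2. All A375 libraries lay above all Colo800 libraries and each hairpin library lay below its scrambled library. With each value scaled by relative depth, the 3 Colo800 values stood at 2, 2 and 1 times the smallest and the A375 values at 35.8, 27.8 and 9 times, so the Colo800 values lie at whole multiples of the smallest value. With no filter the difference between lines was -0.24 (adjusted p = 0.0897, limma).

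ADM (ENSG00000148926) was the only tested hypoxia gene lower in Colo800 that passed the test. It was measured at 4.7 (scrambled), 4.06 (ETV1-sh1) and 7.09 (ETV1-sh2) FPKM in A375. The Colo800 libraries held 0.174 (scrambled), 0.65 (ETV1-sh1) and 0.259 (ETV1-sh2) FPKM. The lines did not overlap. The fitted ADM difference was -2.19 (SE 0.252, 95% interval -2.80 to -1.59, adjusted p = 0.000888, limma), and it passed under all 12 alternatives tried. Since ADM was below 1 FPKM in every Colo800 library and passed the filter through A375, where it is high, a gene that entered this way had to differ; with no filter the difference was -2.19 (adjusted p = 0.00853, limma). Against scrambled, ADM differed by 0.23 over both hairpins (adjusted p = 0.763, limma).

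NDRG1 (ENSG00000104419) had the highest FPKM of the 10 genes in 5 libraries, the exception being Colo800 with ETV1-sh1, where HIF1A was higher. It was at 181 FPKM in A375 with the scrambled hairpin, at 542 with ETV1-sh1 and at 178 with ETV1-sh2. Its Colo800 values were 694 FPKM in the scrambled library, 329.6 under ETV1-sh1 and 289 under ETV1-sh2. With ETV1-sh1 it was thus 2.99 times the scrambled level in A375 and 47.5% of it in Colo800; with ETV1-sh2 it was 98.5% and 41.6%. No NDRG1 comparison passed: the fitted values were 0.25 for ETV1-sh1 (adjusted p = 0.833), -0.64 for ETV1-sh2 (adjusted p = 0.435), -0.89 for ETV1-sh2 against ETV1-sh1 (adjusted p = 0.295) and 0.64 between the lines (adjusted p = 0.261, limma). The line difference was 1.31 without either ETV1-sh1 library (adjusted p = 0.034 without the A375 library and 0.0335 without the Colo800 library) and -0.013 without either scrambled library. The difference of the hairpin effect between the lines was -1.94 (SE 0.95, unadjusted p = 0.0916, adjusted p = 1.00, limma).

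BNIP3 was the tested hypoxia gene with the smallest p-value against scrambled. BNIP3 (ENSG00000176171) was at 37.2 FPKM in scrambled A375, 18.9 under ETV1-sh1 and 31.5 under ETV1-sh2. Colo800 gave 72.3 FPKM when scrambled, 20.3 for ETV1-sh1 and 30.2 for ETV1-sh2. Each hairpin library lay below the scrambled library of its line and ETV1-sh1 below ETV1-sh2 in both lines, although ETV1-sh1 left more ETV1. BNIP3 stood at 50.7% and 84.6% of scrambled in A375 and at 28% and 41.7% in Colo800.

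The fitted BNIP3 difference over both hairpins was -1.05 (SE 0.334, 95% interval -1.85 to -0.24, unadjusted p = 0.0184, adjusted p = 0.395, limma). In that comparison 0% of genes passed, the smallest adjusted p was 0.135, and 1204 genes, 10.8%, had an unadjusted p under 0.05. For ETV1-sh1 the BNIP3 value was -1.36 (SE 0.266, 95% interval -2.01 to -0.72, adjusted p = 0.0657), where 2.28% of genes passed, and for ETV1-sh2 it was -0.73 (SE 0.266, adjusted p = 0.106, limma), where 16.7% passed. Both comparisons use the same scrambled libraries. The ETV1-sh1 value passed in only 2 of 11 alternatives, without the A375 or without the Colo800 ETV1-sh2 library. In both it stayed at -1.36 and only the estimate of the spread changed. On leaving out each library in turn it ran from -1.82 to -0.90. Between the lines BNIP3 differed by 0.33 (adjusted p = 0.236, limma). The annotation names 39 BNIP3 pseudogene copies and 2 overlapping antisense genes, so some of its reads may be shared with copies.

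BNIP3L (ENSG00000104765) passed the test only between the lines. It was measured at 40.9 (scrambled), 43.4 (ETV1-sh1) and 49.3 (ETV1-sh2) FPKM in A375. The Colo800 libraries held 78.6 (scrambled), 46.6 (ETV1-sh1) and 74.9 (ETV1-sh2) FPKM. The ranges of the lines overlapped, Colo800 with ETV1-sh1 lying below A375 with ETV1-sh2. The fitted BNIP3L difference between lines was 0.54 (SE 0.184, adjusted p = 0.0444, limma) and passed under 3 of 12 alternatives; it was 0.26 (adjusted p = 0.282) with libraries scaled without ribosomal protein and mitochondrially encoded genes. Against scrambled it was -0.12 (adjusted p = 0.88, limma). In the annotation BNIP3L overlaps 5 genes, 2 of them on its own strand. PNMA2, among the 5, is also in the expression table. BNIP3L stood at 1.1 (scrambled), 2.3 (ETV1-sh1) and 1.57 (ETV1-sh2) times BNIP3 in A375 and, in the same order, at 1.09, 2.3 and 2.48 times in Colo800, so in FPKM the pair was nearest to equal in the scrambled libraries.

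**Figure D2:**
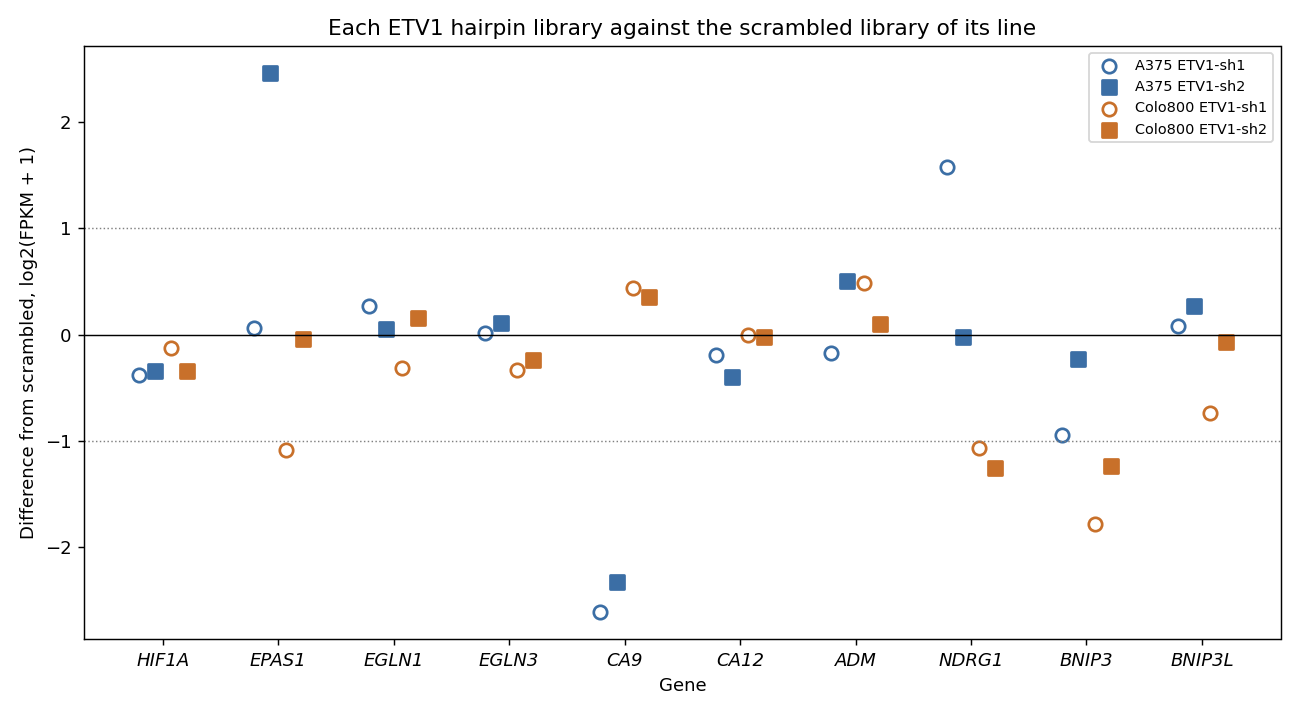
Difference of each ETV1 hairpin library from the scrambled library of its line, on the log2(FPKM + 1) scale, for the 10 hypoxia genes; each point is 1 library, and the 2 points of a line share its scrambled library. BNIP3 and HIF1A lie below 0 in all 4 libraries, CA9 lies at -2.62 and -2.33 in A375, EPAS1 at 2.47 in A375 with ETV1-sh2 and NDRG1 at 1.58 in A375 with ETV1-sh1.

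No hypoxia gene passed the test against scrambled with both hairpins together, with ETV1-sh1, with ETV1-sh2, or between the hairpins. With both hairpins together ETV1 itself did not pass (-2.81, adjusted p = 0.414, limma), since that fit counts the difference between the hairpins as spread. Missing the threshold there does not show that a gene was unchanged. Of all genes 0% passed with both hairpins, 2.28% with ETV1-sh1, 16.7% with ETV1-sh2 and 13.7% between the hairpins. Of the 8 tested hypoxia genes, 1 had an unadjusted p under 0.05 by limma in each of these comparisons: BNIP3 against scrambled and EPAS1 between the hairpins. In the same order 10.8%, 18.8%, 35.6% and 33.4% of all genes had one. All 4 hairpin libraries lay below scrambled for 2 of the 8, HIF1A and BNIP3, against 16.8% of all genes tested, and above it for none, against 19.7%. On the log2(FPKM + 1) scale both hairpins in Colo800 lay at least 2-fold below scrambled for BNIP3 and NDRG1, as for 0.908% of all genes. No hypoxia gene lay at least 2-fold above scrambled on that scale with both hairpins in either line. Of all genes 0.952% did so in A375 and 0.899% in Colo800. In plain FPKM CA9 in Colo800 stood at 2.84 times scrambled with ETV1-sh1 and 2.44 times with ETV1-sh2, at levels below 1 FPKM. The median of the 8 was -0.29 for ETV1-sh1 and -0.12 for ETV1-sh2, beside 0.00 and 0.05 for all genes tested.

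Between the lines 5 of the 8 tested hypoxia genes passed: HIF1A, EPAS1, EGLN1 and BNIP3L were higher in Colo800 and ADM, which entered the test through A375 alone, was lower. This is 62.5%, near the 57.1% of all genes that passed (31.8% higher and 25.3% lower). HIF1A and ADM passed under all 12 alternatives, EPAS1 under 9, EGLN1 under 5 and BNIP3L under 3. All Colo800 libraries lay above all A375 libraries for HIF1A, EGLN1 and, below the filter, EGLN3, which 26.2% of all genes tested also did. They lay below for ADM and, below the filter, CA12, as for 21.6%. The share of all FPKM in ribosomal protein genes was 15.8% to 18.9% in A375 libraries and 6.33% to 8.94% in Colo800 libraries. Leaving them and mitochondrially encoded genes out of the scaling moved the median line difference of all genes from 0.07 to -0.20 and the split of genes passing from 3542 higher and 2811 lower to 2485 higher and 4035 lower (2806 and 3584 under upper-quartile scaling); all 5 line differences kept their sign.

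**Figure D3:**
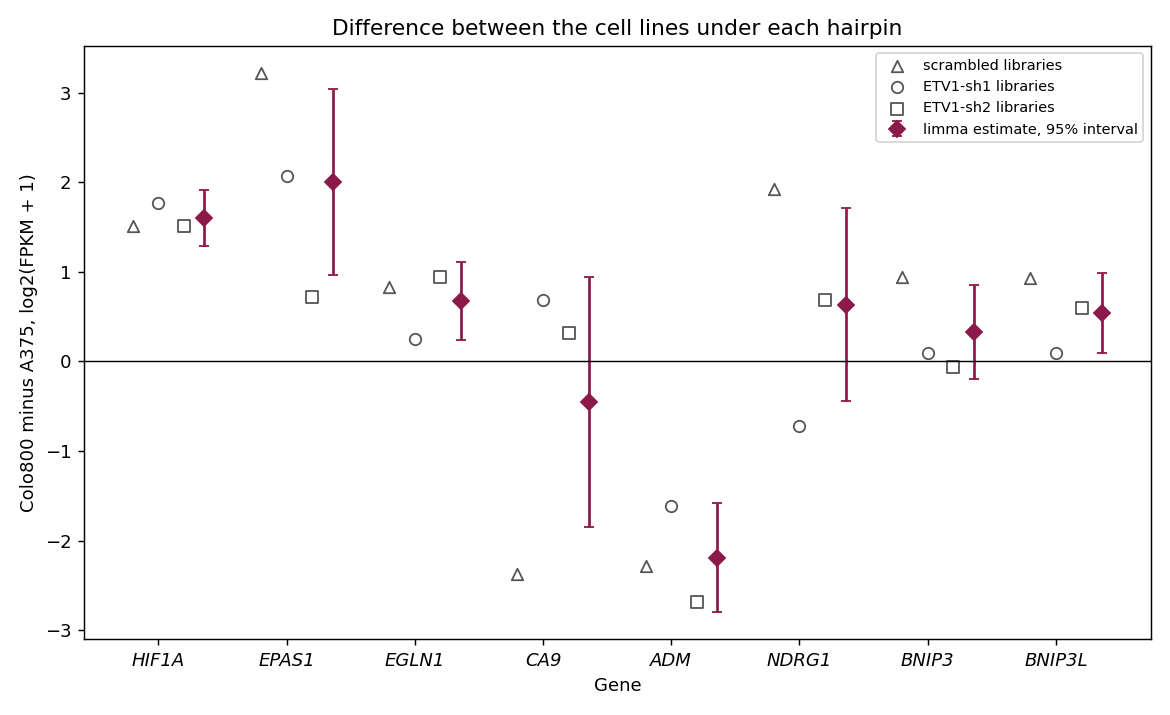
Colo800 minus A375 on the log2(FPKM + 1) scale for the 8 tested hypoxia genes; open symbols are the difference under each hairpin (1 library per line), and diamonds with bars are the limma estimate and its 95% interval. The intervals of HIF1A (1.29 to 1.91) and ADM (-2.80 to -1.59) lie far from 0, and NDRG1 spans 1.93 to -0.72 between hairpins.

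Of 19 tested oxygen sensing genes and HIF regulators, CITED2, which competes with HIF alpha for the coactivators EP300 and CREBBP, was the only one to fall with ETV1-sh1, where 1.51% of all genes fell. None passed with ETV1-sh2, where 16.7% of all genes passed; 8 of the 19 had an unadjusted p under 0.05 by limma, as had 35.6% of all genes. With ETV1-sh1 CITED2 had 6.4 FPKM against 28.1 in A375, and 8.56 against 32.2 in Colo800 (log2 change -1.89, adjusted p = 0.0197, limma). The HIF beta subunit ARNT was at 24.7, 30 and 48.5 FPKM in A375 and 37, 34.7 and 51.1 in Colo800 with the scrambled hairpin, ETV1-sh1 and ETV1-sh2, and just missed the threshold with ETV1-sh2 (0.70, adjusted p = 0.051, limma). Between the lines 3 of these 19 were lower and 6 higher in Colo800 (47.4%, beside 57.1% of all genes). VHL was lower by 0.72 log2 units (adjusted p = 0.00555), EP300 was higher by 1.27 (adjusted p = 0.00123), and ARNT2, a relative of ARNT, was higher by 1.47 (adjusted p = 0.000839, limma).

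Of 37 other non-glycolytic HIF targets, 3 fell with ETV1-sh1 (8.11%, beside 1.51% of all genes lower) and 3 fell with ETV1-sh2 (beside 9% of all genes lower). None rose with either, where 0.773% of all genes rose with ETV1-sh1 and 7.73% with ETV1-sh2. HIGD1A, a small mitochondrial protein induced by hypoxia, fell with both: it was at 81.3, 37.7 and 50.4 FPKM in A375 and 67.2, 31 and 36.4 in Colo800 in the order scrambled, ETV1-sh1, ETV1-sh2 (-1.09, adjusted p = 0.035, and -0.77, adjusted p = 0.0273, limma). Like BNIP3 it was lower with ETV1-sh1 than with ETV1-sh2 in each line. With ETV1-sh1 the LIM domain protein CSRP2 (-1.61, adjusted p = 0.0263) and the heme-degrading enzyme HMOX1 (-1.32, adjusted p = 0.0337, limma) also fell. With ETV1-sh2 the mTOR inhibitor DDIT4 (-1.57, adjusted p = 0.0286) and the angiogenic ligand VEGFA (-0.85, adjusted p = 0.0448, limma) fell. The count with ETV1-sh1 was 8 without either ETV1-sh2 library; without a scrambled or an ETV1-sh1 library of either line no gene of any companion list passed for ETV1-sh1, CITED2 included. The calls with ETV1-sh2 also depended on single libraries. HIGD1A, DDIT4 and VEGFA all lost their call without the A375 scrambled library and without the ETV1-sh1 library of either line. VEGFA passed in only 3 of 11 alternatives. It also failed with no variance trend and with libraries scaled without ribosomal protein and mitochondrially encoded genes. VEGFA was at 41.5, 18.4 and 17.2 FPKM in A375 and at 269.6, 184 and 192 in Colo800.

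Between the lines, 19 of these 37 targets were higher and 4 lower in Colo800 (62.2%, near the 57.1% of all genes, of which 31.8% were higher and 25.3% lower). The smallest p-values were those of VEGFA (3.11, adjusted p = 0.000116), the chemokine receptor CXCR4 (3.0, adjusted p = 0.000261) and the transcription factor BHLHE41 (2.62, adjusted p = 0.00016, limma). The 4 lower were ANGPTL4 (-4.20, adjusted p = 0.000341, limma), SPAG4 (-1.80), KDM4C (-1.34) and FAM162A (-0.55). ANGPTL4 thus differed by more log2 units than VEGFA, in the other direction. CXCR4 was at 0.0393, 0.393 and 0.00935 FPKM in A375 and at 5.44, 14.5 and 6.54 in Colo800 (scrambled, ETV1-sh1, ETV1-sh2). It thus passed the filter through Colo800 alone, so a difference between the lines was built in. The median line difference of the list was 0.50, beside 0.07 for all genes.

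Of 22 tested glycolytic HIF targets, 8 fell and 1 rose with ETV1-sh2 (40.9%, beside 16.7% of all genes), and 2 fell with ETV1-sh1 (9.09%, beside 1.51% of all genes lower; 6 fell without either ETV1-sh2 library). The glycolytic regulator PFKFB4 (-2.44, adjusted p = 0.00806), the lactate-forming enzyme LDHA (-1.48, adjusted p = 0.00806) and the pyruvate dehydrogenase kinase PDK1 (-0.94, adjusted p = 0.0284, limma) were among those lower with ETV1-sh2, and the lactate exporter SLC16A3 (0.88, adjusted p = 0.038, limma) was the 1 that rose. SLC2A1, the glucose transporter GLUT1, fell with ETV1-sh1 (-1.83, adjusted p = 0.0197) and PFKFB3 fell with both (-1.46, adjusted p = 0.0399, and -1.08, adjusted p = 0.0285, limma). The proliferation list moved in the same comparison: 15 of its 18 genes fell with ETV1-sh2 (2 without the A375 scrambled library, 8 without the Colo800 scrambled library, 5 without either ETV1-sh1 library), and 0 passed with ETV1-sh1. Its part in the glycolytic values was not tested. The glycolytic count of 8 became 1 without the A375 scrambled library, 2 without the Colo800 scrambled library, 5 without either ETV1-sh1 library and 4 without the Colo800 ETV1-sh2 library. Scaled without ribosomal protein and mitochondrially encoded genes, 6 glycolytic targets fell, and all genes passing with ETV1-sh2 split into 787 lower and 1365 higher in place of 1002 and 860.

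Of 15 tested partners of BNIP3 and BNIP3L in mitophagy, 4 rose with ETV1-sh2 and none fell (26.7%, beside 16.7% of all genes), with a list median of 0.35. The 4 were the autophagosome proteins GABARAP (0.89, adjusted p = 0.0416) and GABARAPL1 (0.73, adjusted p = 0.0293), the receptor OPTN (1.11, adjusted p = 0.0366) and the kinase PINK1 (0.68, adjusted p = 0.0386, limma). OPTN was at 46.8, 109 and 76.6 FPKM in A375 and 23.5, 49.5 and 69.4 in Colo800, above scrambled in all 4 hairpin libraries, where BNIP3 was below. The count of 4 became 0 without either scrambled library, 1 without either ETV1-sh1 library or the A375 ETV1-sh2 library, and 2 without the Colo800 ETV1-sh2 library. With ETV1-sh1 the autophagy gene BECN1 fell (-1.15, adjusted p = 0.0301, limma).

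Among 9 tested carbonic anhydrases and pH transporters, the mitochondrial enzyme CA5B rose with ETV1-sh2 (1.81, adjusted p = 0.0113), 36.2 FPKM against 7.24 in A375 and 7.15 against 1.98 in Colo800, and the lactate transporter SLC16A1 fell (-0.90, adjusted p = 0.0216, limma). These 2 are 22.2% of the list, near the 16.7% of all genes that passed. Without the A375 scrambled library neither passed, and SLC16A1 also failed without the Colo800 scrambled library. None passed with ETV1-sh1, where 1 of the 9 had an unadjusted p under 0.05 by limma, beside 18.8% of all genes. Of the 6 tested receptor parts and relatives of adrenomedullin none passed with either hairpin by limma, and none had an unadjusted p under 0.05. The accessory proteins RAMP2 and RAMP1 differed between the lines in opposite directions. RAMP2, which with CALCRL forms an adrenomedullin receptor, was at 0.514, 0.479 and 0.774 FPKM in A375 and 44.2, 30.9 and 33 in Colo800 (4.53 higher, adjusted p = 5.54e-05, limma). RAMP1, the partner of CALCRL in the CGRP receptor, was at 37.4, 21.9 and 13.7 in A375 and 0.189, 0.495 and 0.587 in Colo800 (-4.05, adjusted p = 0.000323, limma). RAMP2 was below 1 FPKM in every A375 library and RAMP1 in every Colo800 library. Like ADM, each passed the filter through the line where it is high, so a difference between the lines was built in. Of the 3 other NDRG genes tested none passed with either hairpin by limma. At an unadjusted p under 0.05 stood 1 for ETV1-sh1 and 2 for ETV1-sh2, beside 18.8% and 35.6% of all genes. Between the lines NDRG2 was higher in Colo800 (0.76, adjusted p = 0.0109) and NDRG4 lower (-2.43, adjusted p = 0.000261, limma), where 57.1% of all genes passed. NDRG4 was below 1 FPKM in every Colo800 library and passed the filter through A375, so its difference was built in. When low genes were kept in, neither hairpin comparison had a gene that passed (smallest adjusted p = 0.14 for ETV1-sh1 and 0.0638 for ETV1-sh2, limma), so the calls of these companion genes depend on the filter.

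**Figure D4:**
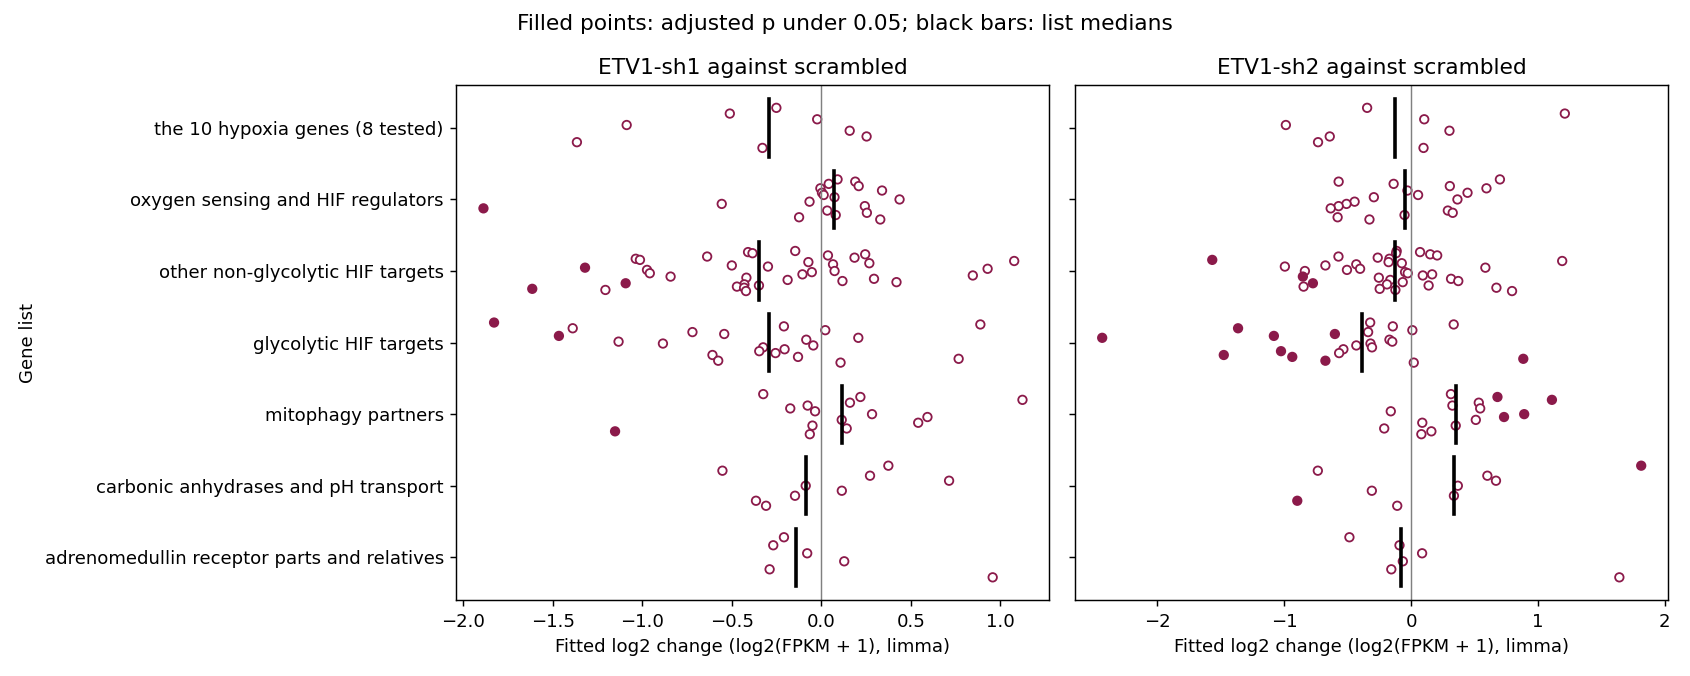
Fitted log2 change (horizontal axis, log2(FPKM + 1) scale) of each tested gene of 7 lists, left for ETV1-sh1 and right for ETV1-sh2 against scrambled; filled points passed at adjusted p under 0.05 and black bars are list medians. No point of the 8 tested hypoxia genes is filled, while 9 of 22 glycolytic HIF targets are filled for ETV1-sh2.

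In 4 tested genes a hairpin difference reached at least 2-fold on the log2(FPKM + 1) scale. For these the genes nearest in pattern were found among 11128 others, by the root mean square distance between their 4 hairpin differences. BNIP3 had the closest neighbours, YWHAH, a 14-3-3 protein, at 0.18 log2 units and the palmitoyltransferase ZDHHC20 at 0.23. EPAS1 lay nearest to the stress protein NUPR1 (0.37) and the interferon-induced GTPase MX1 (0.47). NDRG1 lay nearest to the mitochondrially encoded MT-ATP8 (0.44) and to DOCK10 (0.45), and CA9 to the transcription factor TFAP2B (0.48) and the cytokine CSF2 (0.58), so CA9 had no neighbour as close as those of BNIP3. With 4 differences that share 2 scrambled libraries, these distances describe likeness only.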

How the data were processed

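RNA sequencing of 6 libraries was analysed, 1 for each of 2 melanoma cell lines and 3 hairpins. The authors deposited FPKM values. The submitters' processing notes name STAR 2.4, Cufflinks 2.2.1, Cuffnorm and the hg19 build; annotation, strandedness, filters and pooling were not given in the sources used here. FPKM keeps no absolute depth, so the precision of single low values cannot be given.

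From these values limma 3.58.1 in R 4.3.3 (lmFit, eBayes with a variance trend) was fitted on log2(FPKM + 1) in genes whose mean FPKM reached 1. Hairpins against scrambled were fitted with the cell line as a term and 3 residual degrees of freedom; single hairpins and lines with the line and 3 hairpin levels and 2 residual degrees of freedom. The difference between lines in the hairpin effect used a mean per line and knockdown state. In this fit and the one over both hairpins, the difference between the hairpins counts as spread. Within a line, genes with both hairpins at least 2-fold the same way on the log2(FPKM + 1) scale were counted without a test. Alternatives were a pseudocount of 0.1, no filter, other scalings, no variance trend, no line or hairpin term, and leaving out each library. The script was tested on simulated data.

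The 10 genes and all lists were chosen with earlier results of these data known. Companion genes are named where their statistic was among the largest of their list for ETV1-sh2 or the lines, or where 5 or fewer of a list passed. The non-glycolytic HIF targets that were lower in Colo800 are named as well. Promoter windows came from RefSeq (GRCh38.p14) and overlapping genes from GENCODE release 29.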

Additional observations from a re-analysis of the deposited data

Results flagged for a closer look

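In 4 hypoxia genes both ETV1 hairpins lay on one side of scrambled in A375 and on the other side in Colo800. The share of all genes with this pattern was not counted, so the 4 cannot be called unusual. Several of the signs rest on small differences from scrambled. EPAS1 differed by 0.063 in A375 with ETV1-sh1 and by -0.041 in Colo800 with ETV1-sh2. EGLN3 differed by 0.016 in A375 with ETV1-sh1, and BNIP3L by -0.070 in Colo800 with ETV1-sh2. The difference of the hairpin effect (Colo800 minus A375, log2 scale) was 2.88 for CA9, -1.83 for EPAS1, -0.58 for BNIP3L and, in the fit with no filter, -0.34 for EGLN3. None of these differences passed limma's test (adjusted p = 1.00 for each); among all genes tested 66 had an unadjusted p under 0.05, CA9 among them. For CA9 the A375 effect was negative and the Colo800 effect positive; for the other three it was the reverse.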

How the results depend on the processing

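The fits already compare libraries within a cell line. No paired analysis by replicate number was possible because the labels carry no such numbers. With no cell line term 0 genes passed for both hairpins against scrambled, as with it. With no filter on low values the genes passing went from 254 to 0 for ETV1-sh1, from 1862 to 0 for ETV1-sh2 and from 1528 to 0 for ETV1-sh2 against ETV1-sh1 (smallest adjusted p 0.14, 0.0638 and 0.0544, limma). With no variance trend 119 passed for ETV1-sh1. With no hairpin term 3529 in place of 6353 passed between the lines. Genes with both hairpins past 2-fold went from 287 to 1049 at 1.5-fold and 481 with a pseudocount of 0.1 in A375, and from 201 to 986 and 394 in Colo800. Leaving out each library gave 0 to 834 genes for ETV1-sh1, 83 to 1974 for ETV1-sh2, 0 to 1739 for ETV1-sh2 against ETV1-sh1 and 4401 to 5797 between the lines. The cause was not tested, beyond the smaller number of libraries.

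Member values changed sign only on leaving out a library. Over both hairpins the range was -2.47 to 0.40 for CA9, -0.56 to 1.26 for EPAS1, -1.17 to 0.78 for NDRG1, -0.077 to 0.16 for EGLN1 and -0.41 to 0.18 for BNIP3L. For ETV1-sh1 it was -2.52 to 0.35 for CA9, -1.42 to 0.40 for EPAS1 and -0.76 to 1.27 for NDRG1. For ETV1-sh2 it was -2.43 to 0.45 for CA9 and -1.61 to 0.33 for NDRG1. For NDRG1 it was -1.91 to 0.12 between the hairpins and -0.013 to 1.31 between the lines, where CA9 ranged from -1.03 to 0.50. HIF1A and BNIP3 against scrambled and HIF1A, EPAS1, EGLN1, BNIP3L, BNIP3 and ADM between the lines kept their sign under each alternative tried. The difference of the hairpin effect could not be fitted without a scrambled library. The low values of CA12, EGLN3, CA9 and, in Colo800, ADM limit what these libraries can show.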
